A study of Homo sapiens with 8 samples.

Results

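The p53 target genes considered here were CDKN1A, MDM2, ZMAT3, TP53INP1, SESN1, BTG2, FAS, BBC3, RRM2B and XPC. These 10 genes were chosen by name, with earlier results of these data known. Every probe set annotated to one of them, and to no other symbol, was taken. That gave 27 probe sets for 8 of the 10 genes, out of 19775 genes with such a probe set on the array. BTG2 was not named by the annotation used here, and BBC3 was named only by a probe set shared with another symbol, so neither has a value. All 8 measured genes passed the filter on low signal, as did 23 of their 27 probe sets.

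p53 is a transcription factor that is held at a low level by MDM2, an E3 ubiquitin ligase, and is stabilized when DNA, the nucleolus or growth signalling is disturbed. Its targets divide the response among them. CDKN1A (the CDK inhibitor p21) stops the cell cycle, FAS and BBC3 feed the death receptor and mitochondrial routes of apoptosis, RRM2B and XPC serve nucleotide supply and DNA repair, SESN1 restrains growth signalling, and MDM2 closes the loop by degrading p53. A375, the cells used, is a BRAF-mutant melanoma line that is known to keep wild-type p53. The level of p53 mRNA itself was not analysed here.

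RNA of A375 cells was hybridized to 8 HG-U133 Plus2 arrays, 2 for each of 4 groups. Cells with a non-targeting hairpin (shNTC) received 0.1% DMSO for 3 h, without or with Doxycycline (Dox, 100 ng/mL for 3 days). Cells with a Dox-inducible hairpin against HSF1 (sh1999 in the sample titles, shHSF1 here), the master factor of the heat shock response, received the HSP90 inhibitor NVP-HSP990 at 100 nM for 3 h, likewise without or with Dox. Dox therefore separates the groups within each line, and in the shHSF1 line it also induces the knockdown. All groups were of the same cell line. The growth protocol in the labels gives Dox for all lines while the titles keep samples with and without it apart, and the titles were followed. A single hairpin against HSF1 was profiled, so loss of HSF1 and any other effect of that hairpin cannot be told apart. No shNTC cells with NVP-HSP990 and no shHSF1 cells with DMSO were among the arrays, so the inhibitor and the hairpin line cannot be told apart either. Whether a group's 2 arrays stem from separate cultures is not in the labels, and the p-values measure the spread between these arrays only.

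Values are MAS5 signals on a linear scale, scaled to the same trimmed mean on every array, where the median probe set had a signal of 10.6 to 14.2. HSF1 had signals of 36.6 to 99 on the 6 arrays without induced knockdown and of 5.5 and 7.3 with it. The log2 difference was -1.87 with the knockdown (limma, standard error 0.29, adjusted p = 0.00754) and -0.015 with Dox in shNTC cells. Of the melanocyte lineage markers, MITF, SOX10 and S100B were above the array median on all 8 arrays, and PMEL, MLANA, TYR and TYRP1 were below it on all 8. On 1 array, the second of the shNTC Dox DMSO group, the signal of the 3-prime end of ACTB was 46.8 times that of its 5-prime end, against 4.73 to 18.9 on the other 7, a ratio that rises as RNA degrades. For the 8 measured targets, AEN, PLK2 and the regulators and cell cycle genes named below, each difference with Dox is also given without that array. It is not given for SESN2, GDF15, PMAIP1 and SFN, whose comparison with Dox DMSO includes that array. The part of RNA quality in the differences was not tested.

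Promoter sequences are shown because p53 targets are usually recognised by a p53 response element, a pair of motifs of 10 bases each. Of the windows of 250 bases before the annotated starts (RefSeq, GRCh38.p14), 16 were considered, for 8 of the 10 genes. RRM2B and TP53INP1 were left out of this set, so whether their windows hold an element was not tested. A response element with adjacent motifs and at most 2 mismatches to the consensus, on either strand, was found in 3 windows of 2 genes, FAS and MDM2, against 0.561% of 35114 windows of the same length over all genes. The heat shock element (GAA-NN-TTC-NN-GAA, searched on either strand), the kind of sequence HSF1 is known to bind, was in 0 of the 16 windows and in 0.441% of all. The FAS window with the element is chr10:88991181-88991430 on the plus strand, downstream of the other annotated starts of the gene. Its element begins 122 bases before the start. The FAS windows further upstream hold no such element, with 5 mismatches in the closest match of each. The MDM2 window is chr12:68808767-68809016 on the plus strand, downstream of the other annotated start region of the gene, with the element 94 bases before the start, and an overlapping window of a neighbouring MDM2 start holds the same element. ZMAT3, chr3:179071810-179072059 on the minus strand, is shown as the gene whose level rose, and its closest match there had 4 mismatches. Capitals mark the 20 bases of the response element, and the sequences run 5-prime to 3-prime along the strand of the gene.
FAS: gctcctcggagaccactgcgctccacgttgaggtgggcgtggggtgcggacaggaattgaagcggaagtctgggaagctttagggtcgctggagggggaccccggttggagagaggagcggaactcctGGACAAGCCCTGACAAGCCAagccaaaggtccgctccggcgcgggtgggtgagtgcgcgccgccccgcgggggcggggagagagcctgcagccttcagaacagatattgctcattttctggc
MDM2: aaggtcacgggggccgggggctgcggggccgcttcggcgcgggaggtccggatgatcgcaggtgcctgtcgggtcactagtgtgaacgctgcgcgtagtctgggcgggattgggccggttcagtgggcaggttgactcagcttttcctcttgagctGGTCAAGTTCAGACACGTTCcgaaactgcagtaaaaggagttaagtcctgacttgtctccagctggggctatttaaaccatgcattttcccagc
ZMAT3: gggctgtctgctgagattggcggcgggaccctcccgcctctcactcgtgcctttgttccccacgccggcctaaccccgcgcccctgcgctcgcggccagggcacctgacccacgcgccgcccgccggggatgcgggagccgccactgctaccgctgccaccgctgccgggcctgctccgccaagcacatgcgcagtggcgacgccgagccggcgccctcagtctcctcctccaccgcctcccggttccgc
These matches are letters in a window and say nothing about binding in A375 cells. The absence of a match in the ZMAT3 window says only that the element is not in these 250 bases.

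For the HSF1 knockdown under NVP-HSP990, each gene was first read in its brightest probe set. There ZMAT3 was the only one of the 8 measured targets that rose past the threshold, and none fell. FAS and RRM2B were higher on both knockdown arrays without passing the test, although a second FAS probe set, tested singly, was called higher. TP53INP1 was lower in the mean with wide spread. CDKN1A, MDM2, SESN1 and XPC overlapped between the groups, whereas most dimmer MDM2 probe sets did not. Dox alone in shNTC cells gave positive differences for all 8 genes, and for 6 or 7 of them when any 1 shNTC array was left out. For ZMAT3 the Dox difference stood at 0.51 beside 0.83 with the knockdown.

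**Figure D1:**
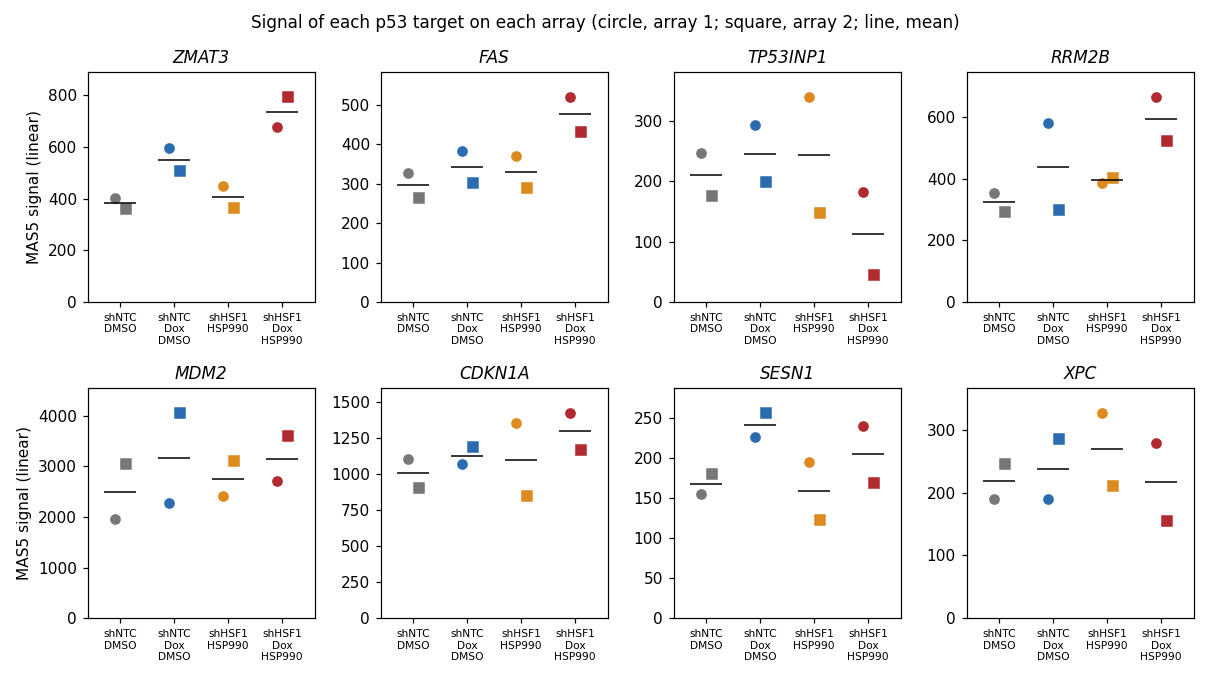
MAS5 signal (linear axis from 0) of the probe set that stands for each of the 8 measured p53 targets, on each of the 8 arrays. Circles are the first and squares the second array of a group, and lines are group means. ZMAT3 and FAS are highest on both arrays of shHSF1 cells with Dox and NVP-HSP990, and the lowest TP53INP1 signal, 44.5, is on the second of those arrays.

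ZMAT3 is an RNA-binding zinc finger protein that controls splicing and mRNA stability and is a direct p53 target. Its signal (probe set 227221_at) was 403.1 and 359.5 in shNTC cells with DMSO, 595.5 and 506.4 when Dox was added, 448.4 and 365.2 in the shHSF1 line given NVP-HSP990 without Dox, and 678.6 and 794.5 with both. Both groups with Dox lay above both groups without it, with no overlap, and the knockdown arrays were the highest of the 8. With the knockdown ZMAT3 rose by 0.83 on the log2 scale (limma over 12672 genes, standard error 0.17, 95% confidence interval 0.46 to 1.21, adjusted p = 0.0294). Of all genes tested, 2.84% were called in this comparison and 0.994% were called higher, and the 8 targets hold 1 call. In bulk RNA, fewer cells of a type and less RNA per cell cannot be told apart. The call has little margin: it was lost without either shNTC DMSO array, without the second shHSF1 NVP-HSP990 array and without either knockdown array (log2 change 0.69 to 0.95, adjusted p 0.0613 to 0.191), and with no filter on low signal (adjusted p = 0.0569).

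With Dox in shNTC cells the log2 difference of ZMAT3 was 0.51 (95% confidence interval 0.13 to 0.89, unadjusted p = 0.0128, adjusted p = 1), and 0.62 without the array with the high ACTB ratio. No gene at all was called in that comparison (limma, 0% of 12672, while 306 genes, or 2.41%, had an unadjusted p under 0.05). The difference between the knockdown and the Dox effect was 0.32 for ZMAT3 (95% confidence interval -0.21 to 0.86, adjusted p = 0.735), while 0.789% of all genes were called for that difference. The order of the group levels was shNTC DMSO, shHSF1 NVP-HSP990, shNTC Dox DMSO and shHSF1 Dox NVP-HSP990 from low to high. Its first 2 groups overlapped, and the last 2 did not overlap but differed by 0.41 (adjusted p = 0.217).

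FAS is the death receptor of the TNF receptor family that recruits caspase-8 through FADD. In its brightest probe set (204780_s_at) the signals were 327.3 and 263.3 with DMSO, 382.0 and 301.8 with Dox and DMSO, 368.9 and 289.6 with NVP-HSP990, and 520.3 and 430.3 with Dox and NVP-HSP990. The last group lay above all 6 other arrays, which overlapped among themselves. The knockdown difference was 0.51 (standard error 0.20, 95% confidence interval 0.07 to 0.95, adjusted p = 0.238) and the Dox difference 0.20 (95% confidence interval -0.24 to 0.64, and 0.36 without the array with the high ACTB ratio). Their difference, 0.31, had an interval of -0.31 to 0.93. A second FAS probe set, 204781_s_at, gave 148.9 and 146.3, 187.2 and 169.3, 165.7 and 176.6, and 317.8 and 305.1 in the same order of groups. Tested singly over 24631 probe sets it was called higher with the knockdown, by 0.81 (standard error 0.16, adjusted p = 0.0376), and against Dox DMSO, by 0.75 (adjusted p = 0.0331). Its difference from the Dox effect was 0.56 (unadjusted p = 0.0353, adjusted p = 0.475). The knockdown call was lost without any 1 of the 6 arrays other than those of shNTC cells with Dox (adjusted p 0.0994 to 0.203), and the call against Dox DMSO without any 1 of the 4 shNTC arrays or the second knockdown array.

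The other measured genes of the apoptosis and arrest branches gave no call. TP53INP1 is a nuclear protein that promotes p53-dependent death and autophagy. Its only tested probe set had signals of 246.3 and 174.9 with DMSO, 292.4 and 198.1 with Dox and DMSO, 339.8 and 147.6 with NVP-HSP990, and 181.4 and 44.5 with Dox and NVP-HSP990. The first array was above the second in all 4 groups, and the knockdown groups overlapped (181.4 against 147.6). The knockdown difference of -1.14 had an interval of -2.26 to -0.03 (adjusted p = 0.309), and without the first knockdown array it was -1.996 (adjusted p = 0.0437). With Dox in shNTC cells it was 0.20 (95% confidence interval -0.91 to 1.31), or 0.46 without the array with the high ACTB ratio, and the difference of the differences was -1.34 (95% confidence interval -2.92 to 0.23, adjusted p = 0.573).

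CDKN1A had signals of 1104.8 and 905.1 with DMSO, 1067.1 and 1183.3 with Dox and DMSO, 1350.3 and 844.2 with NVP-HSP990, and 1422.4 and 1167.3 with Dox and NVP-HSP990. All 4 ranges overlapped with at least one other. The knockdown difference was 0.27 (95% confidence interval -0.22 to 0.75) and the Dox difference 0.17 (95% confidence interval -0.32 to 0.65, and 0.092 without the array with the high ACTB ratio). An increase of p21 mRNA beyond the upper bounds of 0.75 and 0.65 on the log2 scale lies outside these intervals. Smaller increases lie within them and cannot be told from no change here, with 2 arrays a group.

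MDM2, both target and inhibitor of p53, had 10 probe sets, of which 9 passed the filter. In the brightest (229711_s_at) the signals were 1958.7 and 3041.3 with DMSO, 2270.9 and 4055.9 with Dox and DMSO, 2410.9 and 3094.4 with NVP-HSP990, and 2704.7 and 3591.2 with Dox and NVP-HSP990. The second array was the higher in every group, so that the spread within groups exceeded the shifts between them: 0.19 with the knockdown (95% confidence interval -0.47 to 0.85) and 0.31 with Dox (95% confidence interval -0.35 to 0.98). Without the array with the high ACTB ratio the Dox difference was -0.10. Of the 8 dimmer probe sets tested, 244616_x_at spread as widely, and none was called. In every other dimmer probe set tested, both knockdown arrays lay above both of their controls, as 21.5% of all genes did in their brightest probe set. In 238733_at, one of those with a small standard error, 30.3 and 24.9 with NVP-HSP990 stood against 51.3 and 53.3 with the knockdown, a difference of 0.65 (unadjusted p = 0.00621, adjusted p = 0.133), and in 211832_s_at 21.9 and 20.9 stood against 42.2 and 33.7, a difference of 0.52 (adjusted p = 0.212).

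**Figure D2:**
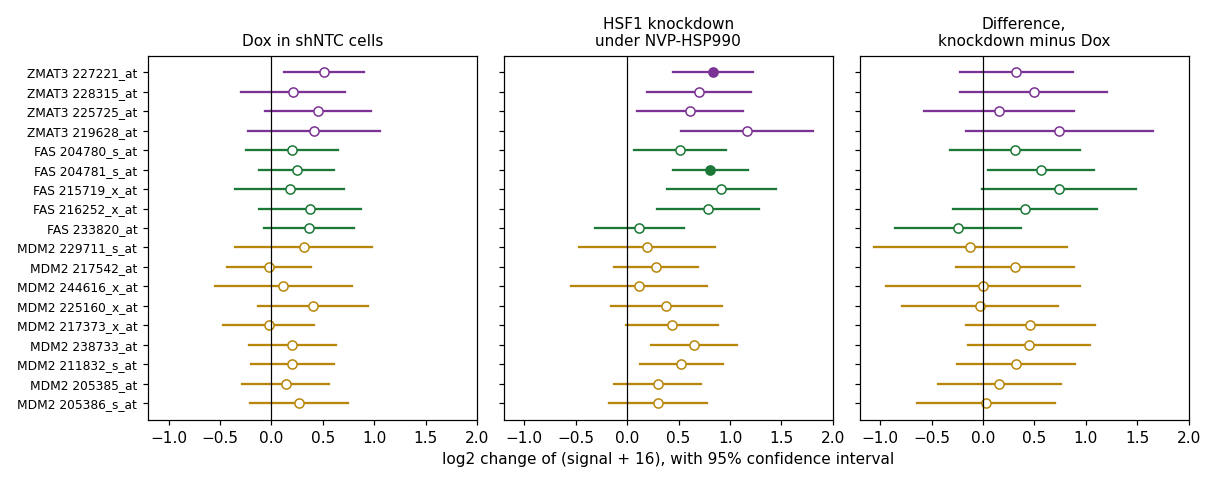
log2 change of (signal + 16) with its 95% confidence interval for each tested probe set of ZMAT3 (purple), FAS (green) and MDM2 (ochre), from left to right for Dox in shNTC cells, the knockdown under NVP-HSP990 and their difference. Filled points passed the threshold. All 18 points lie above 0 for the knockdown, and none of the differences in the right panel passed.

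Over all probe sets of a gene, the 4 of ZMAT3 were positive with the knockdown (0.61 to 1.16), as were the 5 of FAS (0.12 to 0.92) and the 9 of MDM2 (0.11 to 0.65). With Dox in shNTC cells the 4 of ZMAT3 ranged from 0.21 to 0.51, the 5 of FAS from 0.18 to 0.38 and the 9 of MDM2 from -0.03 to 0.41. Of the 23 probe sets tested singly, 2 were called with the knockdown, 1 each of ZMAT3 and FAS, and 1.88% of all probe sets were called and 0.536% were called higher. Against Dox DMSO 1 was called, where 3.98% of all were. Probe sets of 1 gene read the same transcripts, so their shared sign is a single observation, those with names ending in x_at can also catch related sequences, and their levels are not comparable with each other.

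The targets in repair, nucleotide supply and growth signalling gave no call. RRM2B, the p53-inducible subunit of ribonucleotide reductase, had signals of 355.4 and 291 with DMSO, 580.4 and 299.3 with Dox and DMSO, 385.5 and 403.6 with NVP-HSP990, and 667 and 523.7 with Dox and NVP-HSP990. Both knockdown arrays were above both of their controls (difference 0.56, 95% confidence interval -0.02 to 1.15, adjusted p = 0.345), but 1 of the 2 shNTC arrays with Dox was as high. That Dox difference was 0.36 (95% confidence interval -0.23 to 0.95) and 0.82 without the array with the high ACTB ratio.

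SESN1, a sestrin that damps mTORC1, had signals of 154.3 and 179.9 with DMSO, 225.7 and 255.9 with Dox and DMSO, 195.2 and 122.3 with NVP-HSP990, and 239.8 and 168.3 with Dox and NVP-HSP990. It was higher with Dox on both arrays in shNTC cells (0.49, 95% confidence interval -0.05 to 1.03, unadjusted p = 0.0713, and 0.40 without the array with the high ACTB ratio), and overlapped in shHSF1 cells (0.35, 95% confidence interval -0.19 to 0.89). XPC, the damage sensor of nucleotide excision repair, had signals of 190.2 and 245.9, 189.6 and 285.8, 327.2 and 211.3, and 278.3 and 154.7 in that order of groups. All its groups overlapped, with differences of -0.32 for the knockdown (95% confidence interval -0.99 to 0.36) and 0.10 for Dox (95% confidence interval -0.57 to 0.77), the latter -0.18 without the array with the high ACTB ratio.

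**Figure D3:**
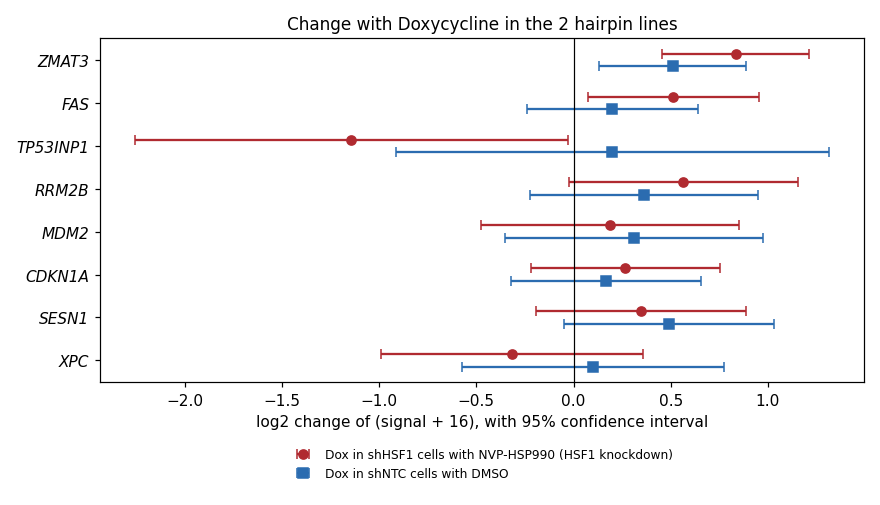
log2 change of (signal + 16) with Dox for the 8 measured p53 targets, in shHSF1 cells under NVP-HSP990 (red circles, where Dox induces the HSF1 knockdown) and in shNTC cells with DMSO (blue squares). Bars are 95% confidence intervals. The intervals of each gene overlap between the lines, and with Dox in shNTC cells all 8 points lie above 0.

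Set side by side, the knockdown and Dox alone share no arrays. With the knockdown 6 of the 8 targets had a positive difference, with a median of 0.31 against 0.0015 over all genes tested, of which 50.2% were positive, and 3 of the 8 had an unadjusted p under 0.05, as 15.3% of all genes had. The median was 0.57 without the first and 0.19 (5 positive) without the second shHSF1 NVP-HSP990 array, and 0.49 without the second knockdown array. With Dox in shNTC cells it was 8 of 8, with a median of 0.26 against -0.0064 and 48.5% positive. Without the array with the high ACTB ratio the latter was 6 of 8 with a median of 0.38. It was 6 with 0.37 without the first shNTC DMSO array, 7 with 0.25 without the second, and 6 with 0.31 without the first shNTC Dox array. Read in the brightest probe set, 3 targets had both knockdown arrays above both controls (ZMAT3, FAS and RRM2B), as 21.5% of all genes had. With Dox 2 had (ZMAT3 and SESN1), as 11.8% of all genes had. For the difference between the comparisons the median of the 8 was -0.011, 4 were positive (50.3% of all genes) and 0 were called by limma, with 0 at an unadjusted p under 0.05 where 10.6% of all genes were. That median changed sign with the setting: it was 0.17 without the first shHSF1 NVP-HSP990 array, 0.15 without the second knockdown array, 0.046 without the array with the high ACTB ratio, 0.013 without the first shNTC DMSO array, -0.088 without the second shHSF1 NVP-HSP990 array and -0.10 without the first shNTC Dox array, and 0.13 with averaged probe sets and 0.074 with quantile normalization. The intervals of that difference were wide, at their narrowest -0.21 to 0.86 for ZMAT3, so unequal responses of that size cannot be told from equal ones. HSF1 itself, the gene knocked down, was not called for that difference either (-1.86, limma, adjusted p = 0.0768).

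The comparisons between the lines gave no call for the 8 targets in the brightest probe set of each, beside the FAS probe set 204781_s_at called singly above. Without Dox, the shHSF1 line given NVP-HSP990 differed from the shNTC line given DMSO by values from -0.10 for SESN1 to 0.28 for RRM2B, 7 of them positive where 52.2% of all genes were, with a median of 0.13. Single arrays decided both: without the first shHSF1 NVP-HSP990 array 2 were positive with a median of -0.045, without the second 7 with 0.28, without the first shNTC DMSO array 6 with 0.20, and without the second 5 with 0.0054. By limma 0 were called and 0 had an unadjusted p under 0.05, where 0.221% and 4.96% of all genes did. CDKN1A and MDM2 had differences of 0.09 and 0.16 there, with intervals of -0.39 to 0.58 and -0.50 to 0.82. These differences between inhibitor and DMSO are also differences between the lines. With Dox in both groups, the shHSF1 Dox NVP-HSP990 arrays gave 0 calls by limma when set against shNTC Dox DMSO, where 5.83% of all genes were called. Its 3 targets at an unadjusted p under 0.05, as 19.5% of all genes were, were FAS with 0.46 (adjusted p = 0.232), ZMAT3 with 0.41 (adjusted p = 0.217) and TP53INP1 with -1.23 (adjusted p = 0.207). This comparison shares its arrays with those above, so the 3 values are not separate evidence.

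Of 42 further p53 targets listed beside the 10, 39 had a single-symbol probe set and 34 were tested. With the knockdown 2 rose and 0 fell, 23 were positive and the median was 0.15, where 0.994% of all genes were called higher and 50.2% were positive. By limma 9 of the 34 had an unadjusted p under 0.05, as 15.3% of all genes had. AEN, an exonuclease induced by p53 during apoptosis, had signals of 275.7 and 284.8 with NVP-HSP990 and of 578.8 and 465 with Dox and NVP-HSP990 (change 0.85, adjusted p = 0.0355). In shNTC cells AEN lay at 392.7 to 524.7 on all 4 arrays with a Dox difference of 0.05 (0.25 without the array with the high ACTB ratio), so that the shHSF1 cells with NVP-HSP990 alone were the low group. PLK2, a polo-like kinase induced by stress, had 1222 and 1276.6 against 1985.2 and 2123.3 (change 0.71, adjusted p = 0.0289), and 1374.9 to 1665.2 in shNTC cells with a Dox difference of -0.18 (-0.15 without that array). Both calls were lost without any 1 of the 6 arrays other than those of shNTC cells with Dox (adjusted p 0.0665 to 0.164 for AEN and 0.0764 to 0.200 for PLK2), and the difference from the Dox effect was not called for AEN (0.80, adjusted p = 0.246, and 0.60 without the array with the high ACTB ratio) or PLK2 (0.89, adjusted p = 0.0931, and 0.86 without it). With Dox in shNTC cells 0 of the 34 were called, 20 were positive (48.5% of all genes) and the median was 0.05. There 0 had an unadjusted p under 0.05 (2.41% of all genes). For the difference from the Dox effect 0 were called, 18 were positive (50.3%) and the median was 0.11. In that comparison 7 had an unadjusted p under 0.05 (10.6%). For NVP-HSP990 without Dox 6 did, in both directions (4.96%), and against Dox DMSO 8 (19.5%).

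Taking the brightest probe set of each gene, the calls between the lines were outside the 8 measured targets. Of the 34 further targets, 1 was called without Dox, where 0.221% of all genes were. Against Dox DMSO 4 were called, where 5.83% of all genes were. SESN2, a sestrin that is also a target of ATF4, had signals of 94.8 and 86.1 with DMSO, 80.1 and 74.8 with Dox and DMSO, 261.8 and 249.1 with NVP-HSP990, and 378.4 and 397.1 with Dox and NVP-HSP990. Every shHSF1 array was above every shNTC array. It was 1.35 higher with NVP-HSP990 in shHSF1 cells than with DMSO in shNTC cells (adjusted p = 0.0113, and 0.0685 to 0.252 without any 1 of these 4 arrays), the only call among the 34. Against Dox DMSO the knockdown with NVP-HSP990 was higher in SESN2 by 2.11 (adjusted p = 0.000231), in the stress cytokine GDF15 by 2.05 (adjusted p = 0.00140), in PMAIP1, the BH3-only protein NOXA, by 1.10 (adjusted p = 0.0473) and in SFN, the 14-3-3 sigma protein, by 0.93 (adjusted p = 0.0382). GDF15 had 95.5 and 104.2 with Dox and DMSO against 521.5 and 410.1, with 363.5 and 212.2 for NVP-HSP990 alone. SFN had 187.2 and 169.5 with DMSO, 123.2 and 131.7 with Dox and DMSO, 167.8 and 157 with NVP-HSP990, and 325 and 202 with both. The reference arrays with Dox and DMSO were thus its lowest, and NVP-HSP990 without Dox differed from DMSO by -0.12. GDF15 and PMAIP1 are, like SESN2, known to respond to ATF4 as well as to p53. PMAIP1 lost its call without either shNTC DMSO array, either shNTC Dox array or the second knockdown array (adjusted p 0.0697 to 0.277), and SFN without any of the 4 shNTC arrays or the first knockdown array (adjusted p 0.0715 to 0.196).

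**Figure D4:**
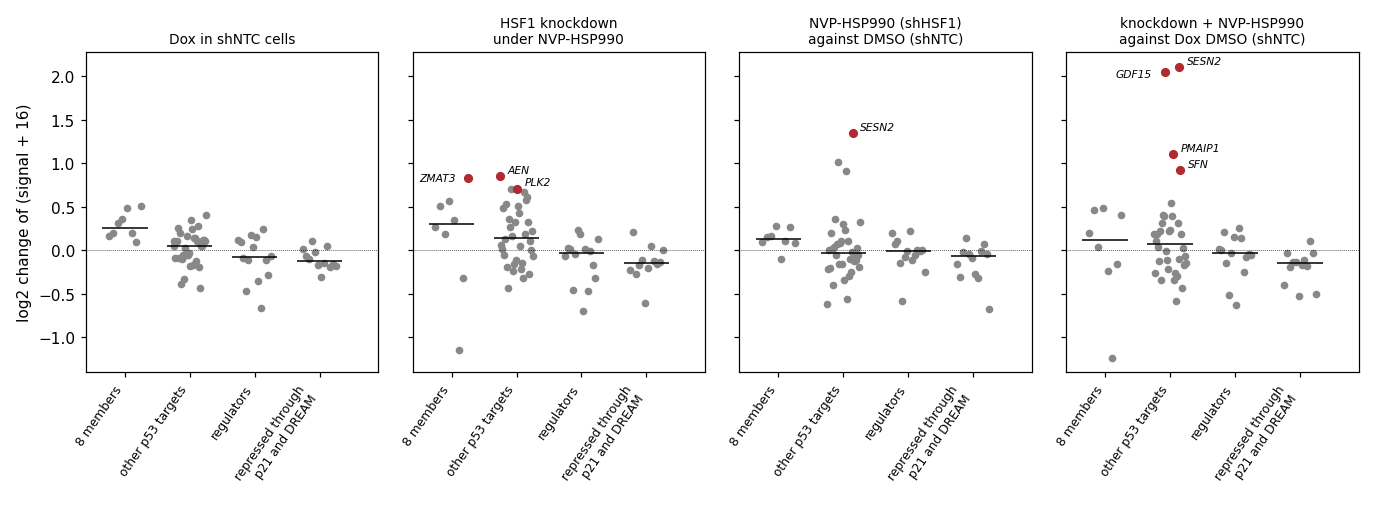
log2 change of (signal + 16) of each tested gene (1 point a gene) in 4 comparisons, for the 8 measured targets, 34 other p53 targets, 14 regulators of p53 and 12 genes repressed through p21 and the DREAM complex. Lines are medians and red points passed the threshold. No point is red for Dox in shNTC cells, and the red points between the lines, SESN2, GDF15, PMAIP1 and SFN, are outside the 8.

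The regulators of p53 gave 0 calls among 14 tested in any of the 5 comparisons (limma, with 3 of the 14 at an unadjusted p under 0.05 for the knockdown, where 15.3% of all genes were, and 2 for Dox, where 2.41% were). MDM4, the MDM2 relative that masks the activation domain of p53, had signals of 765.9 and 683.5 with DMSO, 441.8 and 463.6 with Dox and DMSO, 673.3 and 725.6 with NVP-HSP990, and 538.7 and 462.9 with Dox and NVP-HSP990. Both groups with Dox lay below both groups without it. The differences were -0.66 with Dox in shNTC cells (95% confidence interval -0.99 to -0.33, unadjusted p = 0.00126, adjusted p = 1, and -0.69 without the array with the high ACTB ratio) and -0.47 with the knockdown (95% confidence interval -0.81 to -0.14, adjusted p = 0.145). HIPK2, a kinase that phosphorylates p53, had 506.9 and 658.5 against 344.5 and 356.8 with the knockdown (-0.70, adjusted p = 0.118) and overlapped with Dox alone (0.15, and -0.052 without that array). PPM1D, the phosphatase that switches p53 signalling off and a target itself, differed by -0.15 with the knockdown and 0.14 with Dox (0.34 without that array), neither called.

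Among 12 cell cycle genes that are repressed through p21 and the DREAM complex 0 were called in any comparison (limma, with 1 of 12 at an unadjusted p under 0.05 for the knockdown and 0 for Dox, beside the same 15.3% and 2.41% of all genes). The medians were -0.15 with the knockdown and -0.12 with Dox, against 0.0015 and -0.0064 over all genes tested. With the knockdown 2 of the 12 were positive and with Dox 3, where 50.2% and 48.5% of all genes were. Between the lines, 1 had an unadjusted limma p under 0.05 without Dox (4.96% of all genes) and 2 with Dox (19.5%). CCNB2, a mitotic cyclin, had 1296.3 and 1188.8 with NVP-HSP990 against 821.5 and 803.3 with the knockdown (-0.60, adjusted p = 0.0772), and -0.17 with Dox (-0.34 without the array with the high ACTB ratio). BUB1, a spindle checkpoint kinase, differed by -0.27 with the knockdown and -0.10 with Dox (-0.20 without that array).

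Of the marker lists for other cell types, LUM of the fibroblast list was higher with the knockdown, as ZMAT3 was, at 450.9 and 429.7 against 756.3 and 708.2 (0.71, adjusted p = 0.0385). It was the only 1 of 4 tested fibroblast markers to be called there, and the only 1 with a positive difference. The median of the 4 was -0.26, and COL1A1 had 117 and 113.7 with NVP-HSP990 against 85.9 and 84.5 with the knockdown. The summed signal of the 6 listed was 490.3 to 630.1 on the other arrays and 824.1 and 894.2 with the knockdown, a gain that came from LUM. COL1A2 and COL3A1 were below the array median on all 8 arrays. Of the hepatocyte markers SERPINA1 was lower in the knockdown with NVP-HSP990 than with Dox and DMSO (-1.31, adjusted p = 0.0381). Keratinocyte markers gave 0 calls among 2 tested (KRT10 and KRT14), with KRT5 and KRT1 below the median throughout, and 0 of 6 colon epithelial markers passed the filter. The part of these markers in the changes of the p53 targets was not tested.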

How the data were processed

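Sample groups and array numbers came from the titles. The description fields were left aside, since they mention other cells and drugs. The table holds linear signal intensities, deposited by the authors after MAS5 (version not given), with each array scaled to a mean of 150 once its highest and lowest 2 percent were trimmed. They were used without further normalization. No column of the table was left unused. Of 54675 probe sets, 41091 carried a single symbol. The brightest one stood for each gene, and a gene was tested where its signal reached its own array's median on at least 2 of 8 arrays, which kept 12672 of 19775 genes.

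Comparisons used limma 3.58.1 in R 4.3.3 on log2(signal + 16), fitting 1 mean per group to the 8 arrays, with a variance trend, two-sided tests and Benjamini-Hochberg adjustment over all genes (called at an adjusted p under 0.05). Changes on this scale understate those of dim probe sets. Unadjusted p-values come from the same model. All probe sets that passed the filter were also tested singly. The number of arrays limits the precision. The steps were tested on simulated data.

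The members and gene lists were chosen with earlier results of these data known. Named were all members, HSF1, MDM4, PPM1D, up to 4 called genes of each p53 list per comparison or, with none called, the pair with the smallest p in the knockdown comparison, and the marker lists. MDM2 probe sets 238733_at and 211832_s_at were named after their values were seen. Promoter windows were RefSeq's (GRCh38.p14).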

Additional observations from a re-analysis of the deposited data

How the results depend on the processing

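With the knockdown, the count of p53 targets called was 1 (ZMAT3). It fell to 0 with no filter on low signal, with a gene's probe sets averaged, with only the arrays of the comparison and with the methods' t-test after Benjamini-Hochberg, where ZMAT3 had adjusted p-values of 0.0569, 0.0685, 0.112 and 0.439. Leaving out 1 array at a time it was 0 to 1, and without the first knockdown array the call was TP53INP1 in place of ZMAT3. Over all genes the calls were 360, and 221, 314, 95 and 0 in those 4 settings, 752 with the replicate block and 123 to 380 with 1 array left out. Tested singly, the 2 member probe sets became 1 with 1 added before the log and 0 to 4 with 1 array left out. For the knockdown with NVP-HSP990 against Dox DMSO, the 0 genes called became 0 to 1 with 1 array left out (RRM2B without the first shNTC Dox array at 0.95, TP53INP1 without the first knockdown array at -2.09), and the single probe set called became 0 to 1. The cause was not tested. Among the other p53 targets, AEN and PLK2 lost their calls with no filter (adjusted p 0.0645 and 0.0518), median centring (0.0533 and 0.0645) and only the arrays of the comparison (0.112 and 0.0591), SFN with no filter (0.0700) and median centring (0.0779), PMAIP1 with no filter (0.101), 1 added (0.0540), quantile normalization (0.0568) and no variance trend (0.0633), and SESN2 without Dox with averaged probe sets (0.0554). The t-test called none of them.

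The replicate numbers of the titles give a number only, not a shared culture or day. Over the 6 pairs of groups, the correlation between how far arrays of one number lay from their means was 0.0156 to 0.685. With the replicate block 3 targets were called with the knockdown (FAS, TP53INP1 and ZMAT3) and 2 against Dox DMSO (FAS and TP53INP1), where 2 probe sets were called. With the block 279 genes were called for the difference between knockdown and Dox in place of 100, 44 in place of 28 for NVP-HSP990 without Dox, and 1237 in place of 739 against Dox DMSO. No filter gave 59, 16 and 450 for these, the t-test 0 for the last 2, and 1 array left out 7 to 76, 5 to 30 and 263 to 802. With Dox in shNTC cells no setting called a target.

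Differences that were not called and changed sign are given here on the log2 scale. MDM2 in the difference between knockdown and Dox was 0.029 with quantile normalization and 0.16 with the mean of its probe sets, and against Dox DMSO -0.016 with median centring. With 1 array left out, CDKN1A ranged from -0.067 to 0.60 with the knockdown, -0.23 to 0.44 for the difference and -0.24 to 0.43 for NVP-HSP990 without Dox. MDM2 ranged from -0.014 to 0.39 with the knockdown, -0.10 to 0.73 with Dox, -0.54 to 0.29 for the difference, -0.15 to 0.48 for NVP-HSP990 without Dox and -0.38 to 0.45 against Dox DMSO. XPC ranged from -0.71 to 0.075, -0.18 to 0.38, -0.032 to 0.56 and -0.55 to 0.24 with the knockdown, Dox, NVP-HSP990 without Dox and against Dox DMSO. RRM2B ranged from -0.10 to 0.82 with Dox and -0.26 to 0.66 for the difference, TP53INP1 from -0.064 to 0.46 with Dox, and SESN1 from -0.45 to 0.16 for the difference. For NVP-HSP990 without Dox the ranges were -0.019 to 0.31 for FAS, -0.45 to 0.67 for TP53INP1, -0.058 to 0.23 for ZMAT3 and -0.40 to 0.21 for SESN1. The difference between knockdown and Dox was not run with the t-test or with only the arrays of a comparison.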
